A study of Mus musculus with 6 samples.

Results

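Tlr2 and Tlr4, the Toll-like receptor genes of the table, and Lcp2 and Fyb, which encode the adaptor proteins SLP-76 and ADAP, are described here in sorted stromal cells of mouse bone marrow that the labels call mesenchymal stem and progenitor cells (MSPCs). The 4 genes were taken by name from the 1285 genes that the authors' deposited table holds. Bulk RNA-seq was made from 2 groups at 8 weeks of age, 3 libraries of Snai2-/- animals and 3 libraries of control littermates. Snai2 encodes the transcriptional repressor Slug. The labels give the control genotype only as control, and say neither in which cells Snai2 was lost nor how many animals gave each library. In both groups about 2000 cells per library were sorted as negative for CD45, Ter119 and CD31 and positive for Nes-GFP, a reporter driven by nestin sequences. The sort selects against blood cells and endothelium.

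Toll-like receptors are membrane receptors of innate immunity that bind microbial products and some products of damaged tissue. TLR2 pairs with TLR1 or TLR6 to bind lipoproteins, and TLR4 binds lipopolysaccharide together with its partner MD-2. Both signal through the adaptor MyD88 and the kinase IRAK4 to the transcription factor NF-kB, and stromal cells of bone marrow are known to carry them. SLP-76 and ADAP belong to another pathway, known mainly from blood cells. There, kinases downstream of antigen receptors, Fc receptors and integrins phosphorylate SLP-76, whose SH2 domain binds ADAP, and ADAP links this complex to integrin activation and the actin skeleton.

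All 4 genes had a lower mean in Snai2-/- than in control cells, but none passed a step-up false discovery rate (FDR, an adjusted p-value) of 0.05. Every gene in the table (called listed below) had an unadjusted p under 0.05, so these genes were chosen by their unadjusted p in this same comparison, and their p and ratio are given as a description. By that rule 654 of the 16718 genes tested, 3.91%, were listed as lower, 631, 3.77%, as higher and 1285, 7.69%, in either direction, while 0 genes, 0%, passed the FDR. Values of single libraries were not analysed here. Each value below is therefore the authors' mean of a group, with no spread, and whether libraries of the groups overlap is not known. The means are on the authors' normalized scale, with the unit not given in the sources used, so an order of levels between genes holds on that scale only and says nothing of their molar amounts.

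**Figure D1:**
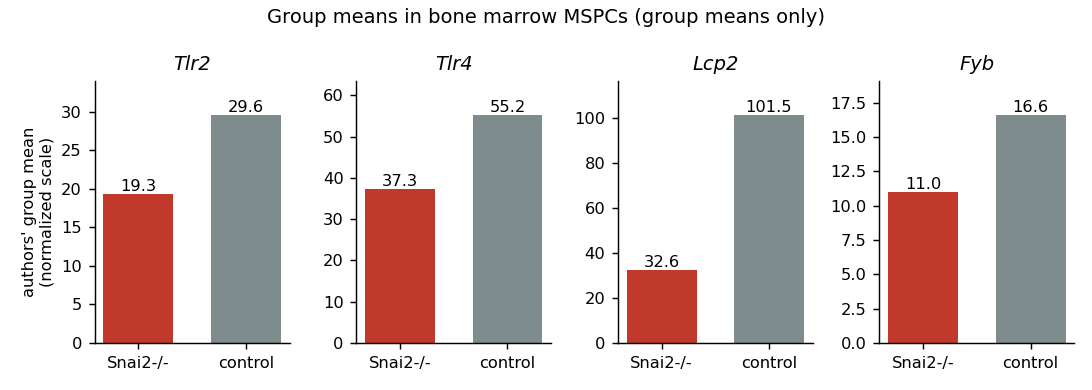
Authors' group means of Tlr2, Tlr4, Lcp2 and Fyb (vertical axes, normalized scale, each starting at 0) in Snai2-/- cells (red, left bar) and control cells (grey, right bar) of mouse bone marrow. Lcp2 shows the widest relative gap, 32.6 against 101.5, and no error bar can be drawn from group means.

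Tlr2 (ENSMUSG00000027995.10) lies on the minus strand of chromosome 3, from 83836272 to 83841767 on GRCm38, and its 2352 coding bases lie in 1 of its 3 exons. In the authors' deposited table its mean was 19.3 in Snai2-/- cells and 29.6 in control cells. The Snai2-/- mean was 1.53 times lower in the authors' deposited table, a log2 ratio of -0.61 at an unadjusted p of 0.0203 and an FDR of 0.534. Tlr2 stood in the middle of the table, at rank 635 of 1285 by p.

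Tlr4 (ENSMUSG00000039005.13) lies on the plus strand of chromosome 4, from 66827584 to 66930284, with 3 exons in its longest coding model. In the authors' deposited table its mean was 37.3 in Snai2-/- cells and 55.2 in control cells. The Snai2-/- mean was 1.48 times lower in the authors' deposited table, a log2 ratio of -0.56 at an unadjusted p of 0.0447 and an FDR of 0.639. The 2 receptors thus had nearly the same relative difference.

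Lcp2 (ENSMUSG00000002699.13) lies on the plus strand of chromosome 11, from 34046920 to 34092295, with 21 exons in its longest coding model. In the authors' deposited table its mean was 32.6 in Snai2-/- cells and 101.5 in control cells. The Snai2-/- mean was 3.11 times lower in the authors' deposited table, a log2 ratio of -1.64 at an unadjusted p of 0.00559 and an FDR of 0.385. This was the widest relative difference of the 4 and the 1 with p below 0.01, a limit that 162 of the 16718 genes, 0.969%, passed as lower.

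Fyb (ENSMUSG00000022148.16) lies on the plus strand of chromosome 15, from 6522853 to 6663313, with 18 exons in its longest coding model. In the authors' deposited table its mean was 11.0 in Snai2-/- cells and 16.6 in control cells. The Snai2-/- mean was 1.51 times lower in the authors' deposited table, a log2 ratio of -0.60 at an unadjusted p of 0.0450 and an FDR of 0.640. The mean transcript levels of SLP-76 and its binding partner ADAP were thus lower by different amounts, with no spread to set beside them, and Fyb was closer in ratio to the receptors than to Lcp2. Fyb and Tlr4 were the members nearest to the limit of the table, where the largest p listed was 0.0499, and genes beyond that limit were not analysed here. In these bulk samples fewer cells of a type and less RNA per cell cannot be told apart.

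The median log2 ratio of the 4 genes was -0.60, that of the 654 genes listed as lower was -0.81, and that of all 1285 listed genes was -0.36. The lower and upper quartiles of the genes listed as lower were -1.34 and -0.55. Tlr2, Tlr4 and Fyb fell near the upper end of that range, with log2 ratios from -0.61 to -0.56. Lcp2 lay below it, with the rank of 116 by ratio among all listed genes, lowest first. The 4 genes lie on 4 chromosomes. Of the protein-coding genes within 500 kb of each (8 for Lcp2, 6 for Tlr2, 5 for Fyb and 1 for Tlr4) 0 were listed, beside 7.69% of all genes tested. So few neighbours allow no reading of the regions.

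**Figure D2:**
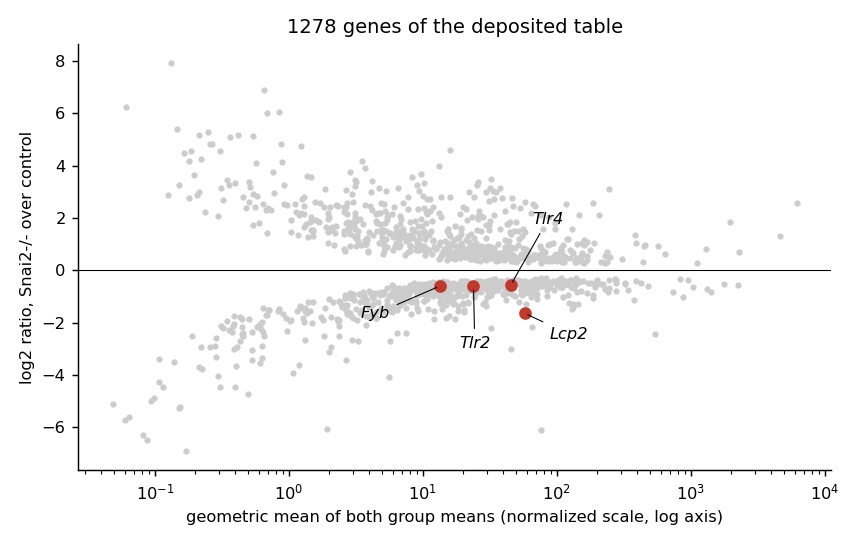
Log2 ratio of Snai2-/- over control (vertical axis) against the geometric mean of both group means (horizontal log axis, normalized scale) for the 1278 listed genes whose group means were both above the table's lowest value. Each grey point is 1 gene and the 4 red points are Tlr2, Tlr4, Lcp2 and Fyb. Tlr2, Tlr4 and Fyb lie between -0.61 and -0.56, close to the upper quartile of the genes listed as lower, -0.55, and Lcp2 lies at -1.64.

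Genes whose pair of group means was closest to each member were found by the Euclidean distance between their log2 means, over 2 groups only. For Lcp2 these were Ifi204, an interferon-inducible gene of the p200 family, Fam43a and Enpp2, which encodes the secreted lysophospholipase D autotaxin, at distances of 0.253, 0.376 and 0.456. Ifi204 stood in the authors' deposited table at 37.6 in Snai2-/- cells against 91.6 in control cells. The nearest to Tlr2 were St3gal2, Haus3 and Atrnl1, at distances from 0.0356 to 0.0543. The nearest to Tlr4 were Pdlim7, Cabin1 and Mgmt, at distances from 0.0269 to 0.0579. The nearest to Fyb were the histocompatibility gene H2-Q5, B9d1 and Gabbr1, at distances from 0.0785 to 0.104. A pair of means fixes only a level on the authors' scale and a ratio, so this nearness describes no more than those.

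Promoter sequence was at hand for 3 of the 4 genes, from RefSeq on GRCm38.p6, as windows from 250 bases before to 50 bases after a transcript start. The RefSeq start of Tlr2 lies inside the first exon of its GENCODE model, and that of Fyb lies inside the GENCODE span of the gene. The windows are shown because these genes stood on the same side of the comparison, each 5′ to 3′ on the gene's strand and cut where an exon of GENCODE M21 or the start begins. Capitals mark matches to 3 motifs searched on both strands, the E-box CAGGTG (a sequence that Snail family proteins are known to bind), the kappaB consensus and GAGGAA, a core of sites for the blood-cell factor PU.1.
Tlr2, chr3:83841768-83841858, minus strand: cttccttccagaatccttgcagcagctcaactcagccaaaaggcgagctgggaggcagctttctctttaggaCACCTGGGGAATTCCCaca
Lcp2, chr11:34046678-34046919, plus strand: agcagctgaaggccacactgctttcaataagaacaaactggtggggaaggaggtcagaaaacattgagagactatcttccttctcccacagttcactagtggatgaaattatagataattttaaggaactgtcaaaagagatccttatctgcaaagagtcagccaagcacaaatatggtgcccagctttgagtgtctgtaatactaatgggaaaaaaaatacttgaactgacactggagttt
Fyb, chr15:6579597-6579846, plus strand: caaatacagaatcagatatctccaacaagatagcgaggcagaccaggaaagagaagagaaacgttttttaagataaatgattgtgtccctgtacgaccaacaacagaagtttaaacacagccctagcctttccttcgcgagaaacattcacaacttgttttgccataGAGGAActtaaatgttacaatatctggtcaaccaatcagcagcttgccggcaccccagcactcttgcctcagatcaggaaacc

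The Tlr2 window held an E-box, read on the other strand as CACCTG, 178 to 173 bases before the start. Overlapping it by 1 base was a pair of kappaB matches that themselves overlap, from 173 to 163 bases before the start, and another kappaB match lay across the start. The Fyb window held 1 GAGGAA, 83 to 78 bases before the start. The Lcp2 window held 1 such match on the other strand just after the start, outside the stretch shown. Over all 32851 windows of 300 bases, 20.2% held the E-box, 4.51% the kappaB consensus and 28.3% GAGGAA. Among windows of genes listed as lower, 15.9% of 616 held the E-box, against 25.9% of 609 among genes listed as higher. For the kappaB consensus these shares were 6.49% and 5.09%, and for GAGGAA 27.1% and 27.8%. These matches are letters in a window and show no binding.

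The other genes of the Toll-like receptor pathway were read by role. Of the 12 Toll-like receptor genes of the mouse, 10 were not in the table, and neither were any of the 9 co-receptors and chaperones, among them Cd14 and Ly96, which encodes MD-2. A gene missing from the table may have been untested or may have had a p-value at or above 0.05, which cannot be told apart. Of the 22 adaptors and kinases 2, 9.09%, were listed, both lower. Of all genes tested 7.69% were listed and 3.91% were listed as lower. Irak4, the kinase that MyD88 recruits, averaged 11.1 in Snai2-/- cells, against 26.7 in control cells, per the authors' deposited table, a log2 ratio of -1.26 at an FDR of 0.328. Tab3, a partner of the kinase TAK1, stood in the authors' deposited table at 3.31 in Snai2-/- cells against 6.05 in control cells. Myd88, Tirap, Ticam1, Ticam2 and Traf6, also on that list, were not in the table. Of 16 NF-kB and IRF factors only Irf7, 6.25%, was in the table, and no NF-kB subunit gene was there. Irf7 stood in the authors' deposited table at 22.9 in Snai2-/- cells against 42.2 in control cells.

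Ligands and targets of the pathway stood on both sides. Of 11 matrix and danger ligands 2 were listed, both higher in Snai2-/- cells. Fn1, the gene of fibronectin, whose alternatively spliced extra domain A is a known activator of TLR4, averaged 47.5 in Snai2-/- cells, against 11.5 in control cells, per the authors' deposited table. S100a9, whose protein forms the TLR4 ligand calprotectin with that of S100a8, stood in the authors' deposited table at 222.9 in Snai2-/- cells against 75.5 in control cells. Of 23 inflammatory target genes 6 were listed, 3 on each side, and their median log2 ratio was 0.13 beside -0.36 over all listed genes. The lower ones were the chemokine genes Ccl7, Ccl2 and Cxcl10, whose log2 ratios, from the authors' deposited table, were -1.84, -0.90 and -0.77. The higher ones were Lcn2, Il6 and Cxcl5, whose log2 ratios, from the authors' deposited table, were 2.43, 1.95 and 1.03. S100a9 and Lcn2 are also neutrophil markers, whose values are given further on. Without Tlr2 and Tlr4, 11 of the 91 genes of these lists, 12.1%, were listed beside the 7.69% of all genes tested, 5 higher and 6 lower, and none of them reached the FDR limit in the authors' deposited table.

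**Figure D3:**
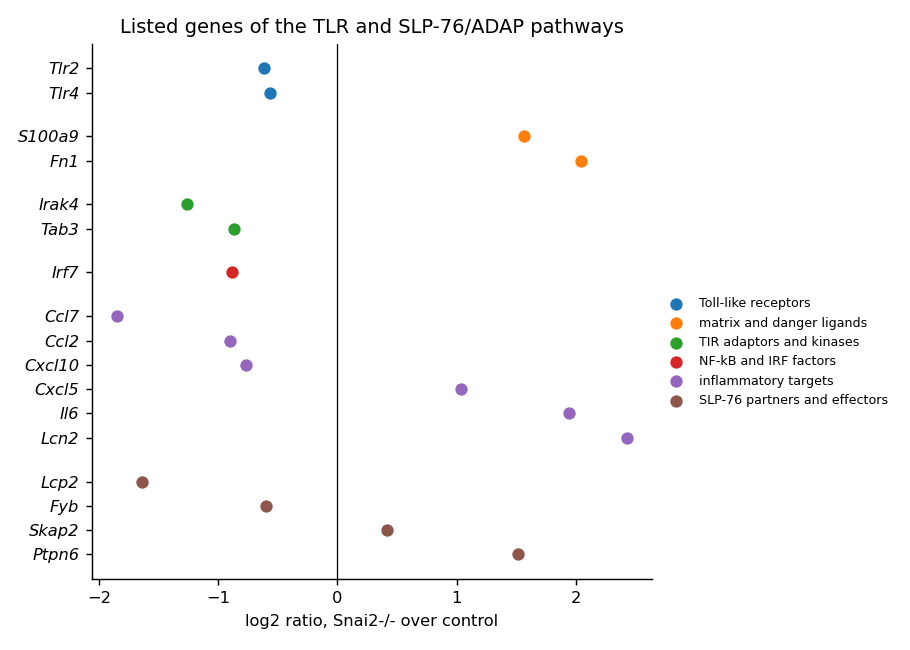
Log2 ratio of Snai2-/- over control (horizontal axis) for the genes of the Toll-like receptor and SLP-76/ADAP lists that the deposited table holds, 1 point per gene, coloured by role. The receptors, the kinase pathway genes Irak4 and Tab3, and Irf7 lie left of 0, the ligand genes Fn1 and S100a9 lie right of 0, and the inflammatory targets and SLP-76 partners lie on both sides.

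The SLP-76/ADAP pathway was read in the same way. Of 37 SLP-76 partners and effectors 4 were listed, Lcp2 and Fyb lower and Skap2 and Ptpn6 higher. Skap2, an adaptor that binds ADAP, averaged 93.8 in Snai2-/- cells, against 70.1 in control cells, per the authors' deposited table, a log2 ratio of 0.42 at an FDR of 0.612. Ptpn6, the gene of the phosphatase SHP-1, stood in the authors' deposited table at 7.70 in Snai2-/- cells against 2.69 in control cells, a log2 ratio of 1.52 at an FDR of 0.615. Both thus stood on the other side of the comparison from the adaptors. Syk, Vav1, Plcg2, Lat and Grap2, also on the list, were not in the table, and neither was any of the 20 ITAM receptor and integrin genes. Without Lcp2 and Fyb, 2 of 55 genes, 3.64%, were listed beside the 7.69% of all genes tested, and none of them reached the FDR limit in the authors' deposited table.

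Since Lcp2 and Fyb are known mainly from blood cells, markers of leukocytes were read beside them. They came from 5 leukocyte lists (neutrophils and monocytes, general leukocytes, macrophages and dendritic cells, B and T cells, mast cells and basophils). Ebf1, on the B and T cell list, was left out because it also marks marrow stroma. It was listed as lower, at a log2 ratio of -0.79. Of the other 66 markers 9 were listed and all 9 were higher in Snai2-/- cells, beside 7.69% of all genes tested that were listed and 3.77% listed as higher. Of these, 7 came from the 18 neutrophil and monocyte markers, which gave 820.1 of the summed mean of 824.5 in Snai2-/- cells and 186.4 of the 187.6 in control cells. The log2 ratios of these 7 ran from 1.56 for S100a9 to 3.38 for Ltf. Their FDRs ran from 0.518 for Ltf to 0.649 for S100a9, so none reached the FDR limit. With a mean of at least 10 in 1 group required, 6 of the 7 were left, and 0 genes of the general leukocyte and of the macrophage and dendritic lists. Ngp, a granule protein gene of neutrophils, averaged 281.5 in Snai2-/- cells, against 49.2 in control cells, per the authors' deposited table. Cd48, the only listed gene of 15 general leukocyte markers, stood in the authors' deposited table at 3.64 in Snai2-/- cells against 1.21 in control cells. Adgre1, the only listed gene of 12 macrophage and dendritic markers, averaged 0.695 in Snai2-/- cells, against 0.0560 in control cells, per the authors' deposited table. With Ebf1 left out, the listed leukocyte markers were thus higher in the cells in which Lcp2, Fyb, Tlr2 and Tlr4 were lower. The part of these markers in the result was not tested. Ptprc, which encodes the CD45 of the sort, Spi1 and Itgam were not in the table.

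**Figure D4:**
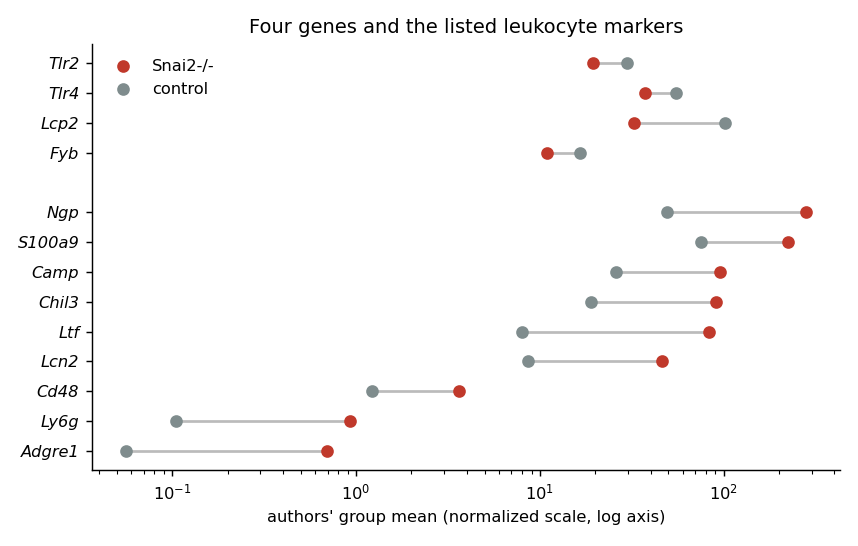
Authors' group means (horizontal log axis, normalized scale) of Tlr2, Tlr4, Lcp2 and Fyb (top) and of the 9 listed leukocyte markers, Ebf1 left out (below), in Snai2-/- cells (red) and control cells (grey), with a line joining the means of a gene. The red point lies left of the grey one for the 4 genes and right of it for the 9 markers.

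Other lists bear on what the sorted cells were. Of 15 MSPC markers only Ebf1, a transcription factor gene of marrow stroma, was listed, at 210.3 in Snai2-/- cells against 362.5 in control cells per the authors' deposited table, so this list allows no further check of the MSPC label. Vwf, the only listed gene of 10 megakaryocyte and platelet markers, a lineage in which SLP-76 acts, and also a known gene of endothelium, stood in the authors' deposited table at 1.38 in Snai2-/- cells against 23.0 in control cells. Its lower mean, at an FDR of 0.648, stood on the same side as Lcp2, and the part of either cell type in the result was not tested. The remaining platelet markers, Itga2b, Pf4 and Gp9 among them, and the 8 mast cell and basophil markers were not in the table. The only listed ones of 12 erythroid and 10 endothelial markers, Car1 and Flt4, were higher in Snai2-/- cells. Their log2 ratios were 1.59 and 1.06 per the authors' deposited table. The single listed genes made 6.67% of the MSPC markers and 10% of the megakaryocyte and platelet markers. They made 8.33% of the erythroid and 10% of the endothelial markers, beside the 7.69% of all genes tested that were listed. Of all genes tested 3.91% were listed as lower and 3.77% as higher. Flt4 and Vwf, which both mark endothelium, thus stood on opposite sides, and so few genes give no direction for endothelium as a whole. Endothelial genes outside the lists were not read here. Snai2 itself averaged 9.20 in Snai2-/- cells, against 636.0 in control cells, per the authors' deposited table, which fits the genotype labels.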

How the data were processed

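RNA of sorted MSPCs was turned into cDNA with the SMART-Seq v4 kit and into libraries with Nextera XT, per the labels' protocols, a chemistry that does not mark the strand. Lcp2 shares 282 exonic bases, 6.32% of its own, with the opposite-strand gene 4930469K13Rik. Fyb shares 319, 5.92%, with the antisense gene Gm2245 and 231, 4.29%, with the pseudogene Gm7666. Reads shared with 4930469K13Rik or Gm2245 cannot be told apart by strand in these libraries. Gm7666 lies on the same strand as Fyb, so strand could not separate its reads in any library. Trim Galore, HTSeq, edgeR 3.12.0 and the mm10 build appear, with no role, in the submitters' processing notes. Neither aligner nor model is given in the sources used.

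Per the file headers, the authors' deposited table holds an unadjusted p-value, a step-up FDR, the ratio of both means, a signed fold change (deposited as a score below 0 for lower genes) and a least-squares mean per group, a normalized signal. In 1285 of 1285 rows the deposited total is 3 times both means added, and 0 totals are whole numbers, within a relative 1e-06. The header's mutant and wildtype were taken for the labels' genotypes, Snai2-/- and control. Depth per library is unknown. In 7 rows a group stands at 0.0001, and those genes entered no search for similar genes.

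No model was fitted here. The p and FDR given are those of the authors, and if libraries shared animals they rest on spread that may be technical. The number of genes tested was derived from the deposited FDR, rank and p, a step checked on simulated tables. Selection at p below 0.05 biases the listed ratios away from 1. The members and the 17 lists (246 symbols, of which 246 are in GENCODE M21) were chosen with earlier results of these data known. Named genes were the members, Snai2, listed genes of the pathway lists, up to 4 listed markers per list by the higher group mean, and the 3 nearest genes to each member; further names were chosen after their values were seen. Coordinates (1-based) come from GENCODE M21, built on GRCm38, which is mm10. Alternatives were pseudocounts, a median scaling, stricter limits and a minimum mean. Python 3.11.15, numpy 2.4.6, pandas 2.3.3 and matplotlib 3.10.9 were used.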

Additional observations from a re-analysis of the deposited data

How the results depend on the processing

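The 4 genes kept a lower mean in Snai2-/- cells under both pseudocounts and the median scaling, an outcome that these settings could hardly alter. With a pseudocount of 1 on both means the log2 ratios were -1.61 for Lcp2, -0.59 for Tlr2, -0.55 for Tlr4 and -0.55 for Fyb. With a pseudocount of 5 they were -1.50 for Lcp2, -0.51 for Tlr2, -0.51 for Tlr4 and -0.43 for Fyb. Dividing each group by its median over listed genes shifted every log2 ratio by 0.11 and gave -1.75 for Lcp2, -0.72 for Tlr2, -0.68 for Tlr4 and -0.71 for Fyb. At an unadjusted p below 0.01 the count was 1 of the 4 genes, Lcp2, and 365 of all 1285, 162 lower and 203 higher. By the FDR of the authors' deposited table, at 0.05, it was 0 of the 4 and 0 of all, 0 lower and 0 higher. A mean of at least 10 in 1 group left 4 of the 4 and 893 of all. In 10 of the 14 lists with a listed gene, the count under that minimum was within 1.5 times the first. No paired analysis was possible because the values are group means, and for that reason left-out replicates, a replicate block and other normalizations or count models were not run. Whether 1 library decides any value is not known.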

Other observations

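Genes next to these pathways but outside the lists were also in the table, and the following were chosen after their values were seen. Tril, which encodes a leucine-rich accessory protein of TLR4, stood in the authors' deposited table at 7.17 in Snai2-/- cells against 20.8 in control cells, a log2 ratio of -1.54 at an FDR of 0.375. Il1rl2, a receptor gene whose protein carries the same kind of intracellular TIR domain as the Toll-like receptors, averaged 13.2 in Snai2-/- cells, against 20.5 in control cells, per the authors' deposited table. Ager, the gene of RAGE, another receptor for S100 proteins, stood in the authors' deposited table at 9.97 in Snai2-/- cells against 22.1 in control cells. Cbl, a ubiquitin ligase gene that restrains immune receptor signalling, averaged 10.4 in Snai2-/- cells, against 15.0 in control cells, per the authors' deposited table. Rbck1, a subunit gene of the linear ubiquitin ligase that acts on the way to NF-kB, stood in the authors' deposited table at 69.1 in Snai2-/- cells against 85.1 in control cells. These 5 genes stood on the same side of the comparison as Tlr2 and Tlr4, a side on which they were picked.

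Leukocyte genes outside the marker lists did not all stand with the neutrophil genes. Gimap5, known from lymphocytes, averaged 2.13 in Snai2-/- cells, against 7.36 in control cells, per the authors' deposited table. Slamf1, a leukocyte surface receptor gene, was listed at the table's lowest value, 0.0001, in Snai2-/- cells, against 6.95 in control cells, per the authors' deposited table.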
